A study of Mus musculus with 20 samples.

Results

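The genes described here are those of cholesterol synthesis, uptake and transport and of the SREBP system that controls them. They were measured by RNA-seq in p19/Nras, a line of mouse liver cancer cells. A list of 34 names was looked up by symbol, and since Sc4mol is an older name of Msmo1 it stands for 33 genes. Of these, 31 were among the 13107 genes of the table of an experiment with vectors and 29 among the 11210 genes of the table of an experiment with hydroxyurea (HU). Hmgcs1 and Abcg1, and in the HU experiment also Tm7sf2 and Mylip, were not analysed here. The list had been chosen because its genes were higher in Trim33 knockout (KO) cells than in wild-type (WT) cells, and because that rise was lost with a Myc vector. The KO-to-WT values of the vector experiment are therefore a description, as are its comparisons of Myc with Ctrl vectors: counts of genes past the threshold say how the list looks, and no p is given. The standard errors (SE) of the KO-to-WT log2 fold changes (log2FC) with the Ctrl vector were between 0.0510 and 0.205, other than for Mylip.

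Every group lacked p19Arf and carried Nras, the genotype of the mouse liver tumor from which the line was made. Cells had received Cas9 with a control guide (sgCtrl, called WT) or with a guide against Trim33 (sgTrim33), the latter as the lines KO1 and KO2. In the vector experiment each of the 3 lines carried the empty pWZL vector (Ctrl) or the same vector with Myc, which gives the groups WT Ctrl, KO1 Ctrl, KO2 Ctrl, WT Myc, KO1 Myc and KO2 Myc. In the HU experiment, WT and KO cells without a vector were left untreated or kept for 4 h in 1 mM HU, a drug that halts DNA replication by depleting nucleotides, and which of the KO lines this was is not stated. Each of the 10 groups had 2 libraries. The labels do not say whether these came from separate cultures. The p-values rest on the spread between the 2 libraries of a group, estimated over all groups of an experiment together. That spread may be technical, and a noisier group was judged by the shared estimate.

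Cells make cholesterol from acetyl-CoA by way of mevalonate, isoprenoid diphosphates, squalene and lanosterol. Most genes of the route are switched on by the SREBP transcription factors, which are made as membrane proteins of the endoplasmic reticulum. When sterols are scarce, the escort Scap carries SREBP to the Golgi, where a pair of proteases sets its active part free, and when sterols are plentiful, Insig proteins hold Scap back. Liver cells are a main site of this synthesis and also take up, store and export cholesterol, the last under control of the LXR receptors.

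The start regions of 4 genes that were higher in both KO lines with the Ctrl vector are printed as examples. They were not the 4 with the largest values, and that of Acat2, the enzyme with the largest, is not printed. Promoters from 250 bases before to 50 bases after a gene's start were given by RefSeq (build GRCm38.p6) for 26 of the 31 genes, and the 4 printed were found once each, without a mismatch, in the mm9 genome. They belong to Idi1 (chr13:8884602-8884901, plus strand), Mvd (chr8:124967273-124967572, minus strand), Nsdhl (chrX:70163610-70163909, plus strand) and Insig1 (chr5:28397702-28398001, plus strand). Capitals mark CCAAT (the box bound by NF-Y), GGGCGG (the box bound by Sp1) and CACGTG (the E-box bound by Myc and other factors), each on either strand, where neighbouring matches can share end letters.
Idi1 promoter: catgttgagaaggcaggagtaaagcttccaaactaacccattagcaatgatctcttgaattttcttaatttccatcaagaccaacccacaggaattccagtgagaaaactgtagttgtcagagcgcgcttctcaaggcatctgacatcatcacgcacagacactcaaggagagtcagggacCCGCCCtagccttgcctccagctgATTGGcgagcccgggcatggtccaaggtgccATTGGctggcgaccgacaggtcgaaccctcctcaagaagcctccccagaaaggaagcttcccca
Mvd promoter: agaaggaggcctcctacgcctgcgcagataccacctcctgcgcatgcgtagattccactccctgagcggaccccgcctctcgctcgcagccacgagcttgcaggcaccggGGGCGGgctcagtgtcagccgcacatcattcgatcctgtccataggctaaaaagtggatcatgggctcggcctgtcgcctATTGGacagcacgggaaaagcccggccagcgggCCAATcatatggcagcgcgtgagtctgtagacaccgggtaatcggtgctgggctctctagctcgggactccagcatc
Nsdhl promoter: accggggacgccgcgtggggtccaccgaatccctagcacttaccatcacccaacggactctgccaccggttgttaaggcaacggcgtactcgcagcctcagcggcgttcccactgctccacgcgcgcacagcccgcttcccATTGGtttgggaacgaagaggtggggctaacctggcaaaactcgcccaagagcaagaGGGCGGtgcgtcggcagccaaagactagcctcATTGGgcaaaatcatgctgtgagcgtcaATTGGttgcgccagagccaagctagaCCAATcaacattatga
Insig1 promoter: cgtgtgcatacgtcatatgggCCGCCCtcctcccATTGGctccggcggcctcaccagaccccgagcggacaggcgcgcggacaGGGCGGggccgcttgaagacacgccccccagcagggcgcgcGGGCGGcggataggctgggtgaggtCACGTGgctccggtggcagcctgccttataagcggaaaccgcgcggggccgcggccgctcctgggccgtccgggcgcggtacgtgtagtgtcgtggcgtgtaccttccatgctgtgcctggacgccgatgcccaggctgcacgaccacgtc
CCAAT was present in 13 of the 14 enzyme promoters given, the exception being Acat2, and in 7 of the 12 promoters of the other members, while 37.41% of all 32851 promoters in the table held it. GGGCGG was present in 13 of 14 enzyme promoters, the exception being Pmvk, and in 10 of 12 others, against 35.66% of all promoters. CACGTG was found in 3 of 14 enzymes and 3 of 12 others, against 7.15%. The sterol regulatory element, searched in its classical form with 1 free position, was in 0 of these 26 windows and in 0.23% of all promoters. A gene with several starts counted as holding a motif when any of its promoters did. On that count 41.06% of genes held CCAAT, 38.2% GGGCGG, 8.09% CACGTG and 0.27% the sterol regulatory element. Mbtps2, which was lower in KO1 and is described below, had none of the 4 motifs in its window.

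Reads were mapped to mm9, and total counts were between 14753177 and 17949430 in the vector experiment and between 2315327 and 3082202 in the HU experiment, which is the less precise. Trim33, the targeted gene, stood at 246 and 258 normalised CPM (counts scaled to the library total after TMM normalisation, a unit used throughout) in WT Ctrl, at 123 and 130 with KO1 and at 201 and 207 with KO2, both Ctrl. The libraries labelled WT Myc stood at 131 and 155, below the 185 and 193 of those labelled KO1 Myc and above the 124 and 125 of those labelled KO2 Myc. In the HU experiment it ranged from 125 to 142 in WT and from 43.8 to 52.2 in KO. A second check also went against the KO labels with the Myc vector: 7 genes that had at least 5 CPM in WT Ctrl and KO2 Ctrl and at most 3 counts in KO1 Ctrl had at most 3 counts in both libraries labelled KO2 Myc, and 0 of the 7 did in those labelled KO1 Myc. Of 307 genes that differed between KO2 Ctrl and KO1 Ctrl by at least 2 on the log2 scale, 303 differed in the opposite direction between the libraries labelled KO2 Myc and KO1 Myc. For this reason the Myc libraries are named by their labels and compared mainly as the mean of both KO lines, which does not depend on which line is which. The WT label was checked too, with 10 genes at 5 CPM or more in WT Ctrl and at most 3 counts in KO1 Ctrl and KO2 Ctrl. Of these, 0 had at most 3 counts in either WT Myc library, and 5 to 9 did in the KO Myc libraries. The defining markers of hepatocytes were nearly absent, with 1 of 14 in the vector table, at most 5.66 CPM, and none in the HU table, while the cholangiocyte genes Krt19, Sox9 and Spp1 were present in both.

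With the Ctrl vector, 11 of the 17 synthesis enzymes were called higher in both KO lines. In KO1 15 were higher and 0 lower, and in KO2 11 were higher and 1, Msmo1, was lower. Over all 17, the median log2 ratio to the mean of WT Ctrl was 0.88 and 0.81 for KO1 Ctrl and 0.58 and 0.52 for KO2 Ctrl. WT Myc gave 0.13 and 0.10, the libraries labelled KO1 Myc −0.02 and −0.01, and those labelled KO2 Myc −0.34 and −0.52. In edgeR's test at an adjusted p of 0.01, 22 of 31 members were higher and 4 lower in KO1 Ctrl than in WT Ctrl, where 25.5% of all genes were higher and 26.7% lower. In KO2 Ctrl, 18 were higher and 5 lower, against 23.3% and 26.6% of all genes. Both lines were higher in 17 members (18.1% of all genes) and lower in 3 (20.8%). The list was chosen on these contrasts, so the counts describe it and are no evidence of its direction. All 4 KO Ctrl libraries lay above all 8 others in 18 of 31 members and in 13 of 17 enzymes, and this held for 7.46% of all genes. Markers of other liver cells moved with these groups: the summed level of the 3 cholangiocyte genes of 5 listed was 2789 to 2835 CPM in WT Ctrl, 1806 to 2110 in the KO Ctrl libraries and 1087 to 1484 in the Myc libraries. Afp, the 1 fetal liver marker of 5 in the table, stood at 30.2 CPM or more with WT Ctrl, at 0.798 to 0.920 with KO1 Ctrl and at 8.13 to 8.56 with KO2 Ctrl, and in the HU experiment at 13.5 to 17.1 in untreated WT and 25.2 to 25.4 in untreated KO. Their part in the values of the enzymes was not tested.

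**Figure D1:**
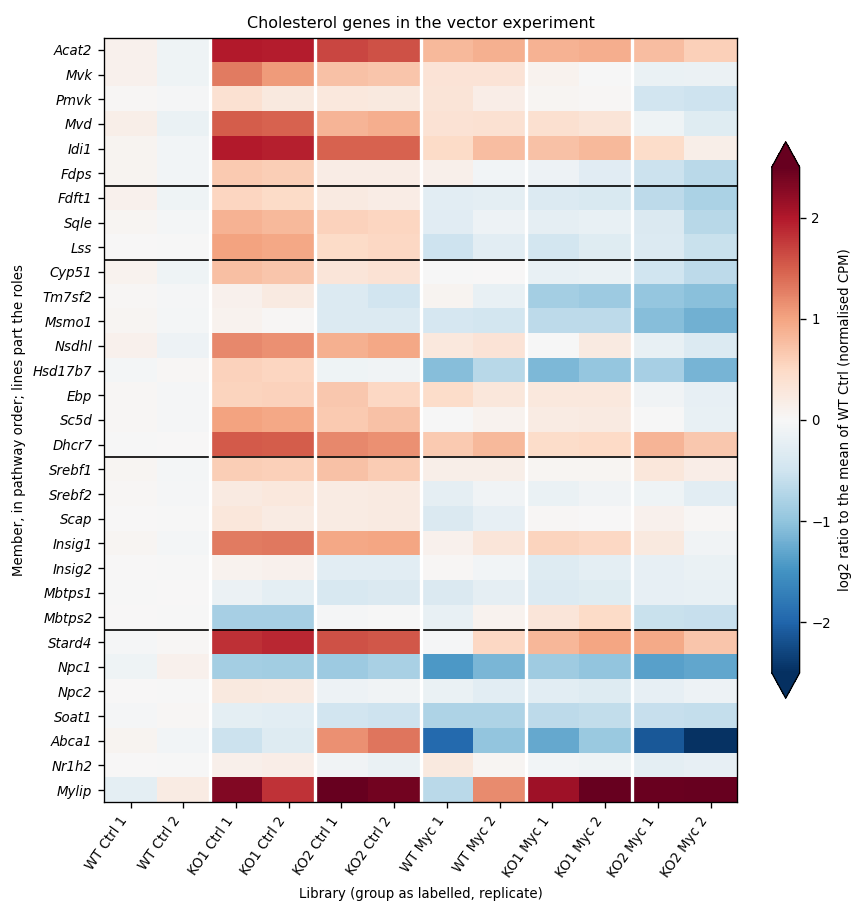
Each row is one of the 31 members in pathway order and each column one library of the vector experiment as labelled. Colour gives the log2 ratio of the normalised CPM to the mean of the 2 WT Ctrl libraries, with red for higher, blue for lower and the scale ending at 2.5. The red block of the 4 KO Ctrl columns covers most enzymes, Insig1 and Stard4, while Npc1 is blue in all KO and Myc columns.

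Among the enzymes the largest values were those of Acat2 and Idi1, both of the mevalonate steps. Acat2, the cytosolic thiolase that joins acetyl-CoA units at the head of the route (Entrez 110460, chr17:13135756-13153613 on the minus strand of mm9), had 61.3 and 52.9 CPM in WT Ctrl, with KO1 Ctrl at 225 and 222 and KO2 Ctrl at 181 and 173. WT Myc stood at 101 and 105, the libraries labelled KO1 Myc at 104 and 108, and those labelled KO2 Myc at 97.4 and 86.5. The KO Ctrl libraries thus stood apart from all others, and the log2FC against WT Ctrl was 1.97 (SE 0.0739) in KO1 and 1.63 (SE 0.0741) in KO2, or 3.92-fold and 3.1-fold. Idi1, the isomerase that turns isopentenyl diphosphate into the reactive dimethylallyl form, had 66.1 and 60.1 CPM in WT Ctrl, with KO1 Ctrl at 249.7 and 244 and KO2 Ctrl at 175 and 176. With the Myc vector it ranged from 69.7 to 111 CPM over all 6 libraries, between WT Ctrl and the KO Ctrl lines. Its log2FC with the Ctrl vector was 1.97 (SE 0.0965) in KO1 and 1.48 (SE 0.0967) in KO2. Mvd, which makes isopentenyl diphosphate, and Mvk, the mevalonate kinase, followed with 1.5 and 1.19 in KO1 and 0.88 and 0.72 in KO2. Pmvk, the kinase between these, had the smallest value of the group in KO1, going from 32.8 and 31.1 CPM in WT Ctrl to 41.5 and 37.6 for KO1 Ctrl and 38.2 and 37.7 for KO2 Ctrl, a log2FC of 0.31 and 0.25. Fdps, which condenses the units to farnesyl diphosphate, had 0.63 in KO1 and, as the smallest of the group, 0.19 in KO2.

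**Figure D2:**
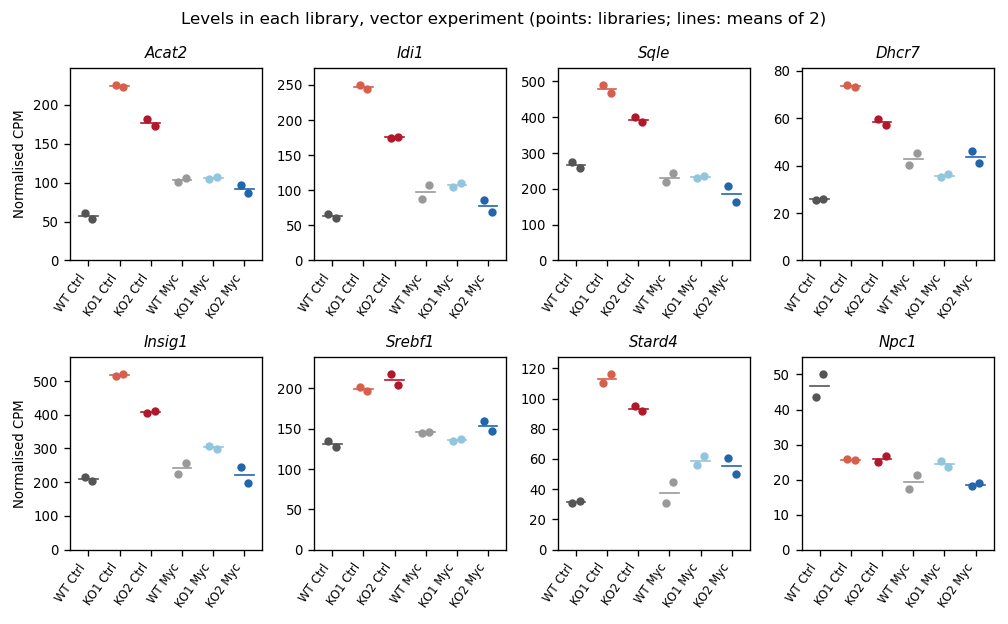
Normalised CPM (vertical axes, from 0) of 8 members in each library of the vector experiment, with points for libraries and a line for the mean of the 2 in each labelled group. In 7 of the panels the 4 KO Ctrl points lie above all others, and in the panel of Npc1 the WT Ctrl points, 43.5 and 50.04 CPM, lie above all others.

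The steps from farnesyl diphosphate to lanosterol moved in the same direction with smaller values. Sqle, the squalene epoxidase and a rate-controlling enzyme of the route, had 276 and 257 CPM in WT Ctrl, with KO1 Ctrl at 489.6 and 468 and KO2 Ctrl at 399.6 and 387. Its Myc libraries ranged from 164 to 244 CPM, all below WT Ctrl. Lss, which folds the epoxide into lanosterol, had 70.9 and 69.7 CPM in WT Ctrl, with KO1 Ctrl at 142 and 137 and KO2 Ctrl at 98.2 and 101, and with the Myc vector all 6 of its libraries lay between 47.8 and 58.3 CPM. Fdft1, the squalene synthase, had 120.5 and 104 CPM in WT Ctrl, with KO1 Ctrl at 164 and 156 and KO2 Ctrl at 131 and 127. The log2FC in the order KO1, KO2 came to 0.85 and 0.56 for Sqle, 0.99 and 0.50 for Lss and 0.51 and 0.20 for Fdft1.

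From lanosterol to cholesterol the 8 enzymes differed among themselves. Dhcr7, the reductase of the last step, had 25.4 and 26.0 CPM in WT Ctrl, with KO1 Ctrl at 73.9 and 73.1 and KO2 Ctrl at 59.5 and 57.0, a log2FC of 1.52 (SE 0.0802) and 1.18 (SE 0.0814). Nsdhl, a dehydrogenase that takes part in removing the methyl groups of lanosterol, had 43.0 and 36.7 CPM in WT Ctrl, with KO1 Ctrl at 92.02 and 88.1 and KO2 Ctrl at 74.1 and 77.6. Both genes showed no overlap between KO Ctrl and any other libraries. Sc5d, the desaturase before the last step, had a log2FC of 0.99 and 0.70, Ebp, the isomerase before it, 0.56 and 0.59, and Cyp51, the demethylase that acts on lanosterol, 0.73 and 0.33. Msmo1, the methylsterol oxidase that works with Nsdhl, did not move with them: it had 328 and 305 CPM in WT Ctrl, with KO1 Ctrl at 336 and 321 and KO2 Ctrl at 249 and 250.1. WT Ctrl and KO1 Ctrl overlapped, and KO2 Ctrl lay below both, with a log2FC of −0.34 (SE 0.0587). Tm7sf2, a sterol reductase, had 0.17 (SE 0.128) in KO1 and −0.41 (SE 0.137) in KO2, and Hsd17b7, the ketosteroid reductase of the same demethylation complex as Msmo1 and Nsdhl, 0.55 and −0.10.

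Among the controllers Insig1 gave the largest values, and those of the SREBP genes themselves were smaller. Srebf2, the SREBP most tied to cholesterol synthesis, had 341 and 327 CPM in WT Ctrl, with KO1 Ctrl at 392 and 399 and KO2 Ctrl at 383 and 391, and its Myc libraries ranged from 279 to 314. Srebf1, whose products favour fatty acid synthesis, had 135 and 128 CPM in WT Ctrl, with KO1 Ctrl at 201 and 197 and KO2 Ctrl at 217 and 204, and from 135 to 159 with the Myc vector. The log2FC was 0.24 and 0.21 for Srebf2 and 0.60 and 0.68 for Srebf1. Scap, the escort, had 85.1 and 84.4 CPM in WT Ctrl, with KO1 Ctrl at 103 and 98.0 and KO2 Ctrl at 97.4 and 98.5. Unlike the SREBP genes it was lowest in WT Myc, at 66.0 and 73.5 CPM, while the 4 KO Myc libraries ranged from 85.6 to 91.3. Insig1, an anchor of Scap and itself an SREBP target, had 215 and 202 CPM in WT Ctrl. KO1 Ctrl stood at 513.5 and 519.9 and KO2 Ctrl at 406 and 410.5, a log2FC of 1.31 (SE 0.0838) and 0.97 (SE 0.0836). Insig2, the other anchor, had 57.1 and 56.5 CPM in WT Ctrl, with KO1 Ctrl at 60.5 and 61.5 and KO2 Ctrl at 47.6 and 47.2, with no common direction. Of the proteases, Mbtps1 had a log2FC of −0.19 and −0.39, and Mbtps2 differed by line. Mbtps2 had 78.1 and 78.0 CPM in WT Ctrl, with KO1 Ctrl at 44.0 and 44.0 and KO2 Ctrl at 76.0 and 77.7.

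Transport and storage genes moved in both directions. Stard4, a carrier that moves cholesterol through the cytosol and an SREBP target, had 30.6 and 32.1 CPM in WT Ctrl, with KO1 Ctrl at 110.4 and 116 and KO2 Ctrl at 94.97 and 91.5. Its log2FC was 1.85 (SE 0.126) and 1.57 (SE 0.127), and its 4 KO Myc libraries, from 50.3 to 62.0 CPM, also lay above WT Myc, at 30.6 and 44.8. Npc1, the membrane protein that exports cholesterol from lysosomes, had 43.5 and 50.04 CPM in WT Ctrl, with KO1 Ctrl at 25.8 and 25.6 and KO2 Ctrl at 25.0 and 26.7, a log2FC of −0.86 in each. Its Myc libraries were lower still or alike, at 17.2 and 21.2 CPM in WT Myc and from 18.2 to 25.4 in the KO Myc libraries. Soat1, which esterifies cholesterol for storage, was lower in both lines, with −0.26 and −0.50, and Npc2, the partner of Npc1, had 0.23 and −0.11. Nr1h2, an LXR receptor, had 0.15 and −0.12. Mylip, a ubiquitin ligase that removes lipoprotein receptors, rested on few reads, with 5 and 7 counts in WT Ctrl against 31 and 22 for KO1 Ctrl and 40 and 34 for KO2 Ctrl. Its log2FC was 2.05 (SE 0.467) and 2.51 (SE 0.434). With the Myc vector it was at 4 and 16 counts in WT Myc and from 31 to 46 in the KO Myc libraries, so that it was among the few members whose KO libraries stood above WT with both vectors.

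With the Myc vector, most enzymes were no longer higher in KO than in WT cells. For the mean of both KO lines against WT, 20 of 31 members were higher and 4 lower with the Ctrl vector (26% and 29.5% of all genes), and 4 were higher and 11 lower with the Myc vector (16% and 17.8%). The median log2FC of the 17 enzymes was 0.70 with Ctrl and −0.29 with Myc, and that of all genes −0.01 in each. Acat2 went from 1.80 to −0.06, Idi1 from 1.72 to −0.10, Dhcr7 from 1.35 to −0.12 and Insig1 from 1.14 to 0.10. In 11 members, 9 of them enzymes, all 4 KO Myc libraries lay below both WT Myc libraries (23.3% of all genes), among them Mvk, Fdps, Cyp51 and Nsdhl. Stard4 and Mylip kept a positive value, 0.59 and 1.85, Scap had 0.32, and Npc1 went from −0.86 to 0.15. As labelled, 8 members were called in KO1 Myc and 18 in KO2 Myc against WT Myc (25.1% and 35.2% of all genes), and without the second library labelled KO1 Myc the former count was 1. The replicates of WT Myc differed more than those of other groups, with a squared difference 11.05 times counting noise against 2.21 to 4.52 in the others of this experiment, and 23 of 31 members were lower in its first library (52.3% of all genes).

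**Figure D3:**
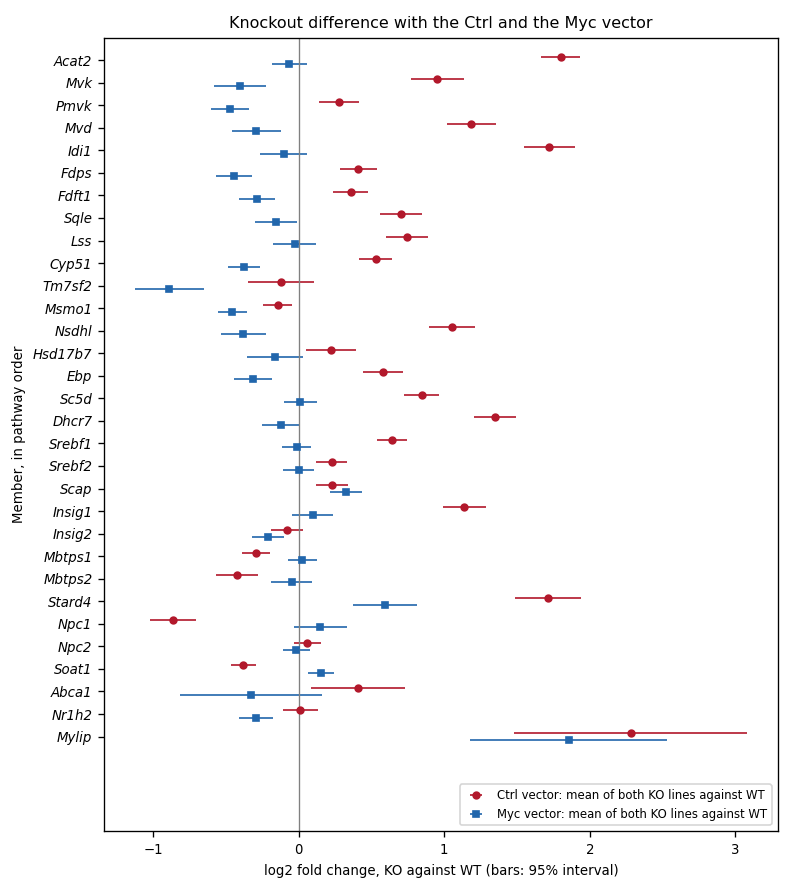
Horizontal axis, log2 fold change of the mean of KO1 and KO2 against WT with the Ctrl vector (red circles) and with the Myc vector (blue squares), for the 31 members in pathway order. Bars are 95% intervals formed from the edgeR log2 fold change and its SE with a normal quantile. The red circles of 15 enzymes lie right of 0, and the blue squares of 16 enzymes lie left of 0.

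The same libraries were also compared along the other axis of the design, Myc against Ctrl. In WT cells the Myc vector went with higher Acat2 (log2FC 0.85), Dhcr7 (0.74) and Idi1 (0.64), and with lower Abca1 (−1.37), Npc1 (−1.28), Hsd17b7 (−0.86) and Soat1 (−0.77). Of 31 members, 5 were higher and 10 lower, against 21.6% and 22.7% of all genes, and the median of the 17 enzymes was 0.04. In KO cells, taken as the mean of both lines, 27 of 31 members were lower and 1 higher with Myc (20.9% and 21.1% of all genes). All 17 enzymes were among the 27, with a median of −0.90. Their 4 KO Ctrl libraries stood above the 4 KO Myc libraries without overlap in all 17 enzymes, and this held for 16.1% of all genes. The largest falls among the enzymes were those of Hsd17b7 (−1.24), Idi1 (−1.18), Lss (−1.15) and Nsdhl (−1.13), and Abca1, the pump that exports cholesterol from the cell, had −2.10. For Abca1 the labelled lines were far apart, with −0.67 in KO1, where it went from 4.46 and 5.19 to 2.67 and 3.40 CPM, and −3.53 in KO2, where it went from a mean of 15.3 to a mean of 1.32 CPM. Mbtps2 was the member called higher for the mean (0.34), but the labelled lines pointed opposite ways, with 1.22 in KO1, where the libraries labelled KO1 Myc had 96.2 and 109 CPM, and −0.55 in KO2, where those labelled KO2 Myc had 52.9 and 52.2. Its KO Ctrl and KO Myc libraries overlapped. With the labels of the Myc lines exchanged, Mbtps2 would be higher with Myc in both lines. Its means would go from 44.0 to 52.6 CPM in KO1 and from 76.8 to 102.8 in KO2. Abca1 would be lower in both, going from 4.82 to 1.32 CPM in KO1 and from 15.3 to 3.04 in KO2. Taken line by line as labelled, 26 members were called in KO1 Myc against KO1 Ctrl and 24 in KO2 Myc against KO2 Ctrl (36.1% and 38.8% of all genes). The difference of the KO effect between the vectors was called in 25 members for KO1, 23 for KO2 and 24 for their mean (37.3%, 32.8% and 34.7% of all genes). The genes had been chosen for this difference, so nothing is read from these counts. These comparisons share libraries with those of KO and WT and are not independent of them.

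The KO lines differed from each other in how far the route was raised. The choice of genes did not use this contrast, but it did use the KO1 Ctrl and KO2 Ctrl libraries that make it up. Its counts and p-values are therefore also a description of the chosen genes. In KO2 Ctrl against KO1 Ctrl, 18 of 31 members were lower and 2 higher, where 9.96% of all genes were lower and 8.33% higher. Of the 17 enzymes, 13 were lower, 0 were higher and the median log2FC was −0.39, against −0.02 for all genes. Leaving out any 1 of the 4 libraries gave 11 or 12 calls in place of 20. Mvd stood at 48.2 and 46.6 CPM with KO1 Ctrl against 30.1 and 31.5 with KO2 Ctrl, a log2FC of −0.62 (SE 0.0866, adjusted p = 4.51e-05). Hsd17b7, at 95.1 and 92.5 against 59.3 and 59.98 CPM, differed by −0.65 (SE 0.1004, adjusted p = 0.000115). Srebf1 and Srebf2 did not pass, with intervals of the difference from −0.03 to 0.19 and from −0.15 to 0.09, and neither did Stard4, at −0.28 (adjusted p = 0.0769). The members that were higher in KO2 were Abca1 and Mbtps2. Abca1 had 6.78 and 6.15 CPM in WT Ctrl, with KO1 Ctrl at 4.46 and 5.19 and KO2 Ctrl at 14.2 and 16.3, and the lines differed by 1.66 (SE 0.176, adjusted p = 2.33e-06). For Mbtps2 the difference was 0.80 (SE 0.0880, adjusted p = 3.28e-06). Between the libraries labelled KO2 Myc and KO1 Myc the same genes differed the other way, Abca1 by −1.20 and Mbtps2 by −0.97, whereas Mvd (−0.57), Idi1 (−0.47) and Cyp51 (−0.40) had the same sign as before. Hsd17b7 (0.06) and Dhcr7 (0.28) turned positive, and Lss was near 0 (−0.06). Of the 17 enzymes, 14 were negative in both comparisons, 2 turned positive and 1 turned negative. Of the 31 members 18 were negative and 2 positive in both. Among all genes, 66.2% had opposite signs in the 2 comparisons. With the labels of the Myc lines exchanged, each of these signs in the Myc libraries would be the opposite one. There 15 of 31 members were lower and 0 higher (9.14% and 9.35% of all genes), and without the second library labelled KO2 Myc the count was 5. Markers of fibroblasts differed between the lines too: 5 of 7 were in the table, and their summed level was 716 to 796 CPM in KO1 Ctrl, 180 to 199 in KO2 Ctrl and 188 in both WT Ctrl libraries. With Myc it was 107 to 116 in the libraries labelled KO1 Myc and 719 to 734 in those labelled KO2 Myc. WT Myc had 211 to 228. The part of these markers in the difference between lines was not tested, and in such bulk samples fewer cells of a type and less RNA per cell cannot be told apart.

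In the HU experiment, none of the members that had been higher in both KO lines was called in untreated KO cells. Of 29 members, 1 was higher and 0 lower in KO than in WT (3.07% and 2.52% of all genes), and 5 had an unadjusted p under 0.05. Idi1 was at 139 and 133 CPM in WT and 135 and 91.2 in KO, Acat2 at 111 and 108 against 94.3 and 113, and Stard4 at 72.4 and 80.1 against 77.2 and 53.8. The groups overlapped in each of these genes. Insig1, at 141 and 132 CPM in WT and 111 and 117 in KO, did not overlap but pointed the other way, with a log2FC of −0.26 (95% interval −0.52 to 0.01, adjusted p = 0.23). For Idi1 it was −0.27 (interval −0.56 to 0.01), for Acat2 −0.07 (−0.36 to 0.21) and for Stard4 −0.23 (−0.58 to 0.12). Sqle, at 222 and 203 CPM in WT and 173 and 198 in KO, had −0.19 (interval −0.43 to 0.04). Of the 16 members that were higher in both KO lines with the Ctrl vector and were measured here, 13 had a negative value, and the upper end of the 95% interval lay below the value of either line in 12. The values ranged from −0.37, for Cyp51, to 0.50, for Mvd. These 16 members had been picked for high values with the Ctrl vector, which by itself favours lower values in other libraries. The intervals leave out the error of the line values, and the share among all genes picked in the same way is not given. The 2 experiments were normalised apart, used cells with and without a vector, and differed in depth, so their difference was not tested. Fibroblast markers, 3 of 7 in the table (Col1a1, Col3a1 and Pdgfrb), summed to 59.0 to 64.7 CPM in WT and 8.02 to 12.2 in KO. The sums of the vector experiment held 5 genes, so the sums of the experiments are not compared.

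**Figure D4:**
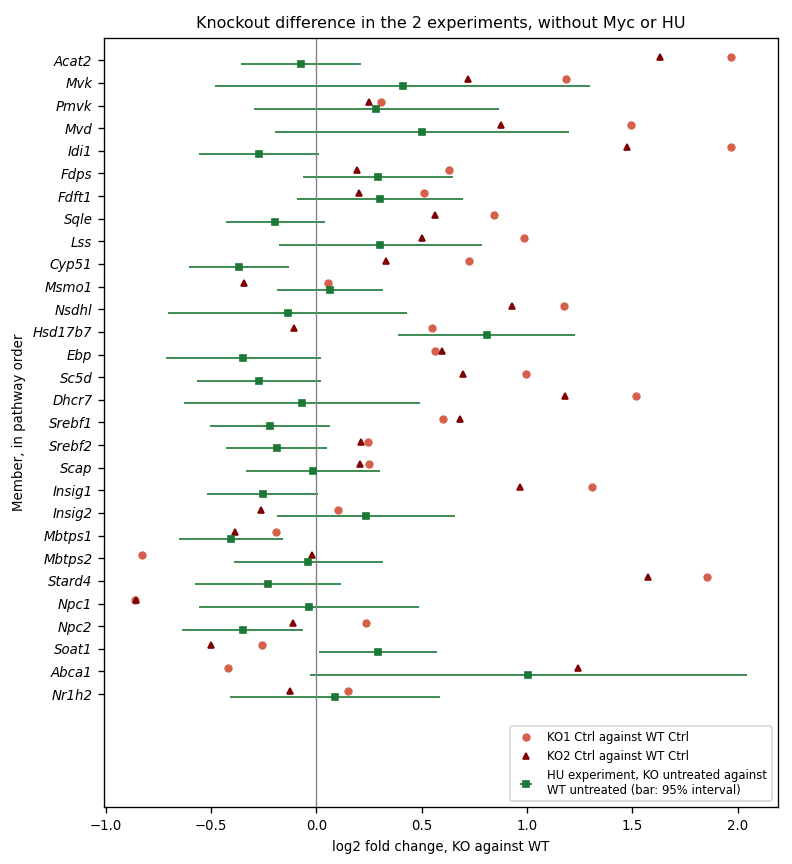
Horizontal axis, log2 fold change of KO against WT for 29 members, with circles for KO1 Ctrl and triangles for KO2 Ctrl against WT Ctrl in the vector experiment, and green squares with 95% intervals for untreated cells of the HU experiment. For Acat2, Idi1, Insig1 and Stard4 the green bars end at 0.21 or below while the circles and triangles lie at 0.97 or above.

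Hsd17b7 (Entrez 15490, chr1:171879666-171899372 on the minus strand of mm9) was the member called in untreated cells. It was at 30.0 and 23.3 CPM in WT and 48.4 and 44.8 in KO, a log2FC of 0.81 (SE 0.215, adjusted p = 0.00735), and the call was lost in 7 of 11 alternatives, with adjusted p-values from 0.00448 to 0.13 and the highest of them without the second untreated WT library. Under HU the difference was wider, from 27.4 and 29.8 CPM in WT to 74.2 and 71.5 in KO. The log2FC of 1.35 (SE 0.201, adjusted p = 7.86e-07), or 2.55-fold, kept its call in all 11 alternatives run, with adjusted p-values up to 0.000632. With the Ctrl vector the same gene had been higher in KO1 and not in KO2. Also under HU, Abca1 was at 3.18 and 6.23 CPM in WT and 14.85 and 16.6 in KO (log2FC 1.74, SE 0.471, adjusted p = 0.0085), and Mbtps1 at 176 and 200.2 against 133 and 138 (log2FC −0.47, SE 0.126, adjusted p = 0.0079). These made 2 members higher and 1 lower of 29, against 3.27% and 2.77% of all genes. Without any 1 of the 4 libraries compared, Hsd17b7 was the member that still passed. In DESeq2 it also passed alone.

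The response to HU was taken up in each genotype. In WT cells 1 of 29 members was higher and 3 were lower after HU at an adjusted p of 0.05, against 6.39% and 3.44% of all genes. Acat2 went from 111 and 108 to 72.2 and 76.5 CPM (log2FC −0.56, SE 0.149, adjusted p = 0.0071), and Sqle from 222 and 203 to 150.2 and 146 (log2FC −0.52, SE 0.122, adjusted p = 0.002). Mbtps2 went from 66.0 and 66.9 to 39.8 and 45.7 CPM (log2FC −0.64, SE 0.186, adjusted p = 0.0158). Each of these fell without overlap between the groups. Npc1 rose from 18.0 and 23.3 to 36.9 and 36.7 CPM in WT (log2FC 0.83, SE 0.248, adjusted p = 0.0205) and from 22.0 and 18.7 to 33.6 and 41.1 in KO (log2FC 0.88, SE 0.249, adjusted p = 0.0173). In KO cells Hsd17b7 rose as well, by 0.65 (SE 0.192, adjusted p = 0.0255), which made 2 of 29 members higher and 0 lower, against 4.65% and 1.8% of all genes. Without WT HU library 1 or 2, the WT count went from 4 to 1 and 0. In KO it went from 2 to 0 without the second untreated or the second HU library and to 1 without the first HU library.

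No member's response to HU was called different between WT and KO. With edgeR's interaction term 0 of 29 members passed an adjusted p of 0.05, as did 8 genes or 0.0714% of all, and 1 member had an unadjusted p under 0.05. DESeq2 also called 0. The interval of the difference ran from 0.05 to 0.87 for Acat2, from −0.04 to 1.12 for Hsd17b7, from −0.19 to 0.49 for Sqle and from −0.64 to 0.74 for Npc1. Insig1, at 147 and 163 CPM in WT and 151 and 130.0 in KO after HU, and Srebf2, at 235 and 256 against 209 and 200.3, gave intervals from −0.25 to 0.48 and from −0.41 to 0.26. The HU experiment had the lower totals and also the larger spread between replicates, with a biological coefficient of variation of 0.102 against 0.0498 in the vector experiment.

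**Figure D5:**
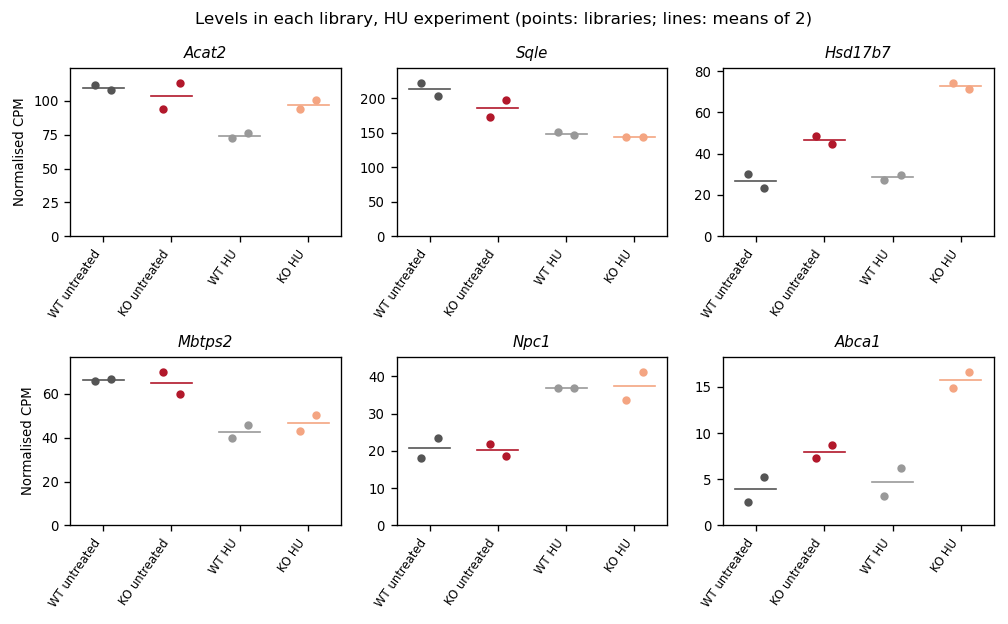
Normalised CPM (vertical axes, from 0) of 6 members in each library of the HU experiment, with points for libraries and a line for the mean of the 2 in each group. The 2 KO HU points of Hsd17b7, 74.2 and 71.5 CPM, and of Abca1 lie above all other points of their panels, and Npc1 is higher in the 4 HU libraries than in the 4 untreated ones.

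Neighbouring pathways were taken from lists that hold none of the members. Their counts stand against 25.5% of all genes higher and 26.7% lower for KO1 Ctrl, with 23.3% and 26.6% for KO2 Ctrl, and several lie near these shares. Of 15 fatty acid synthesis genes with the Ctrl vector, 10 were higher and 2 lower in KO1 and 8 were higher and 2 lower in KO2, with a median log2FC of 0.62 and 0.54. For the mean of both lines the largest rises were those of Elovl6, an elongase (1.42), and Fads2, a desaturase (1.34), and the largest falls those of Acss2, an acetyl-CoA synthetase (−1.02), and Mid1ip1, an activator of acetyl-CoA carboxylase (−0.68). In the HU experiment 0 of 14 were higher and 2 lower in untreated KO cells (3.07% and 2.52% of all genes). In the branch from farnesyl diphosphate to prenylated proteins and dolichol, of 16 genes 0 were higher and 5 lower in KO1, and 0 were higher and 6 lower in KO2, with medians of −0.16 and −0.20. Its largest falls were those of Rabggta, a subunit of the Rab prenyl transferase (−0.91), and Dolk, the dolichol kinase (−0.47), and its highest values, for Pggt1b (0.21) and Icmt (0.19), were not called. Of 18 genes for the turnover and escort of SREBP and of sterol enzymes, 2 were higher and 8 lower in each line. There the extremes were the ubiquitin ligases Rnf145 (1.20) and Rnf139 (0.28), and Paqr3, a Golgi tether of Scap (−2.29), and Erlin1, a scaffold of the endoplasmic reticulum (−0.80). For Paqr3 and Erlin1 the WT Ctrl libraries stood apart from WT Myc too. Paqr3 had 7.28 and 8.68 CPM in WT Ctrl, 1.37 to 2.02 in KO Ctrl and 1.04 and 1.06 in WT Myc. Erlin1 had 123 and 130, 69.6 to 77.4, and 67.2 and 69.4. Of 18 genes for sterol uptake and traffic, 8 were higher and 4 lower in KO1 and 7 were higher and 7 lower in KO2. Lipa, the lysosomal acid lipase (2.79), and Scarb1, the receptor for high-density lipoprotein (1.08), were highest, and Soat2, the other esterifying enzyme (−4.64), and Osbpl2, of the oxysterol-binding family (−2.24) were lowest. Soat2 rested on 5 to 12 counts per library in KO Ctrl, and had 7.35 and 3.96 CPM in WT Myc. Osbpl2 had 155 and 179 CPM in WT Ctrl and 31.5 to 38.7 in KO Ctrl. In WT Myc it was also low, at 42.9 and 41.4. With the Myc vector, 13 of the 15 fatty acid genes were lower and 1 higher in KO cells than with Ctrl, and 3 of the 16 in the prenylation branch were lower and 2 higher, where 20.9% of all genes were lower and 21.1% higher.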

How the data were processed

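RNA-seq counts, whole numbers of reads per gene, were used as the authors deposited them, without a normalisation although the name of the vector table calls them normalised. Per the submitters' processing notes, reads were mapped to mm9 with STAR 2.5.4. The counting tool and annotation are not given in the sources used here. Low counts of the HU table were mostly even (71.9% of counts from 1 to 50, against 48.4%), so halved counts were tried as an alternative. The authors' own comparison tables (log2 fold change, log2 CPM, F, p and adjusted p) were not used. Each table was fitted alone with edgeR 4.0.16 and limma 3.58.1 in R 4.3.3, with TMM normalisation, all groups, filterByExpr (0 genes removed) and the quasi-likelihood test. P-values were two-sided and adjusted by Benjamini and Hochberg over all genes, with thresholds of 0.01 (KO, Myc and line) and 0.05 (HU). The SE was the absolute log2FC divided by the square root of the test's F. Intervals used the normal quantile, which makes them narrower than a t quantile would. DESeq2 1.42.0 was an alternative. The procedure was tested on simulated data. Groups came from the labels, and 0 columns were left without a sample. Members and lists were chosen with earlier results of these data known. Values per library are given for Srebf1, Srebf2, Scap, Insig1 and Insig2, for the 2 highest and the lowest member of each other role by the mean KO value with the Ctrl vector, and for the 3 called members with the largest change (all where at most 5) in each tested comparison. Of the related lists the 2 highest and 2 lowest genes are named. Comparisons that average both KO lines, and KO2 Myc against KO1 Myc, were added after seeing the data. Other values are examples.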

Additional observations from a re-analysis of the deposited data

Results flagged for a closer look

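In 8 members the KO-to-WT difference pointed one way in every KO library with the Ctrl vector and the opposite way in every KO library with the Myc vector, as it did in 6.91% of all genes. The values are differences of the log2FC of the mean of both KO lines, Myc minus Ctrl, and are a description, since the genes were chosen for this difference and its calls are therefore no test of it. It was −1.35 for Mvk (0.95 with Ctrl and −0.40 with Myc), −0.75 for Pmvk (0.28 and −0.47) and −0.85 for Fdps (0.41 and −0.44), all enzymes of the mevalonate steps. Fdft1, the squalene synthase, had −0.64 (0.36 and −0.29). Of the later enzymes, Cyp51 had −0.90 (0.53 and −0.37), Nsdhl −1.43 (1.05 and −0.38) and Ebp −0.89 (0.58 and −0.31). Soat1, which stores cholesterol as ester, was the member with the opposite sign, at 0.54 (−0.38 and 0.16).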

How the results depend on the processing

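No gene value that was called in the main fit or in an alternative had the opposite direction in the other. Changes of sign among values called in neither were not counted. Of the gene values, 103 crossed the threshold in an alternative that kept all libraries (40 gained a call and 63 lost one) and 3651 did not. With one library left out, 32 gained a call, 250 lost one and 3018 did neither. The counts of members called that follow compare settings. Shares of all genes under each setting are not given, so nothing is read about the members from these counts. When calls also had to change by at least 1 on the log2 scale, the members called numbered 9 for KO1 Ctrl and 6 for KO2 Ctrl against WT Ctrl (8 for their mean), 1 each for KO1 Myc, KO2 Myc and their mean against WT Myc, and 9, 10 and 9 for the difference of these effects between vectors. They numbered 2 for WT Myc against WT Ctrl, 11 and 5 for KO1 Myc and KO2 Myc against their Ctrl (9 for the mean), 1 each for KO2 against KO1 with either vector, and 0 for untreated KO, for HU in WT and for HU in KO. Fitting only the groups compared gave 1 (in place of 8) for KO1 Myc against WT Myc, 0 (of 1) for untreated KO and 5 (of 3) for KO under HU. Keeping the genes with 5 CPM or more throughout gave 5 and 0 for the first 2 of these, and halved counts 0 for untreated KO. DESeq2 gave 0 for untreated KO, 1 for KO under HU, 2 (of 4) for HU in WT and 0 (of 2) for HU in KO. Leaving out one library gave 11 to 12 calls (of 20) for KO2 against KO1 Ctrl, 1 to 12 for KO1 Myc against WT Myc (1 without the second library labelled KO1 Myc, 5 without its first or without the first of WT Myc, and 12 without the second of WT Myc) and 5 to 12 (of 15) for KO2 Myc against KO1 Myc. For untreated KO it gave 0 to 1, for HU in WT 0 to 3, for HU in KO 0 to 2 and for KO under HU 1. The cause was not tested, other than that fewer libraries or genes entered the fit. Same-numbered libraries did not deviate together in every pair of groups: over 15 pairs in the vector experiment r ran from −0.37 to 0.50 (median 0.05, with 4 above 0.1), and over 6 pairs in the HU experiment from −0.02 to 0.08. The numbers were therefore not taken as pairs, and with a replicate block the counts stayed within 1.5 times, with 20 (of 20) for KO2 against KO1 Ctrl. The HU experiment had the lower totals and the larger spread between replicates, and their shares in its wider intervals were not tested.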
